A study of Mus musculus with 12 samples.

Results

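The 10 genes described here carry fatty acids from circulating lipoproteins into the cell and prepare them for use, and they were taken from a fixed list: Lpl, Gpihbp1 and Vldlr of lipoprotein lipolysis and uptake, Cd36, Slc27a1 and Slc27a4 of import, Fabp3, Fabp4 and Fabp5 of binding, and Acsl1 of activation. They are 10 of the 37991 gene identifiers in the files, and 9 of them were among the 16163 genes abundant enough to be tested. Gpihbp1 had no reads. Poly(A) RNA was sequenced from fibroblasts of mouse embryos that had been differentiating into adipocytes for 6 days (day 6), in 12 libraries with 3 per genotype. The fibroblasts came from male E15.5 embryos on a C57BL/6N background and had been cultured for 4 passages. All 4 groups received the same treatment, 48 h of insulin (10 µg/ml), rosiglitazone (2 µM), dexamethasone (1 µM) and IBMX (0.5 mM) and then medium with insulin. By their labels the groups are wild type (WT), Gadd45a-/- (Gadd45a-KO), Ing1-/- (Ing1-KO) and Gadd45a-/-;Ing1-/- (DKO), from interbred Gadd45a and Ing1 deficient mice. The question was how loss of the 2 genes alters adipogenesis. Rosiglitazone, which all groups received, activates PPARG, the nuclear receptor that drives many adipocyte lipid genes. The labels do not tell if the replicates of a genotype stem from separate embryos, and the p-values therefore speak only of the scatter of these libraries, which may be technical.

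Fat cells obtain fatty acids in several steps. Lipoprotein lipase, held at the capillary wall by GPIHBP1, frees them from triglyceride-rich lipoproteins, and CD36 with the fatty acid transport proteins (the Slc27 family) moves them across the plasma membrane. Inside the cell the fatty acid binding proteins carry them, and acyl-CoA synthetases such as ACSL1 attach coenzyme A so that they can be stored as triglyceride or oxidised. Several of these genes, Fabp4 above all, are widely used as marks of the mature adipocyte, and Fabp4, Fabp5, Cd36 and Lpl are also expressed by macrophages.

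Gene reads per library ranged from 42891627 to 52860419. Levels are given as CPM, that is read counts scaled by the reads in tested genes and a TMM factor. Ing1 followed its label, at 43.6 to 47.9 CPM in the 6 libraries labelled with intact Ing1 and 0.681 to 1.60 CPM in the other 6. Gadd45a went against its label: it was 9.07-fold higher in the Gadd45a-KO-labelled libraries than in WT and 8.86-fold higher in those labelled DKO (edgeR adjusted p = 1.93e-07 and 1.07e-07). Directions involving these libraries therefore refer to their labels only. Col1a1 and Col1a2, fibroblast collagens, stood at mean levels of 14624 and 14212 CPM, and the macrophage markers Lyz2 and Adgre1 at 3297 and 381 CPM. The libraries therefore hold fibroblast and macrophage RNA beside adipocyte RNA. A list of 12 adipocyte markers that shares no gene with the 10 summed to 474 to 1118 CPM in WT, 312 to 456 CPM in the Gadd45a-KO-labelled libraries, 95.1 to 863 CPM in Ing1-KO and 69.2 to 79.2 CPM in the DKO-labelled libraries. Replicate 2 stood apart in WT as the lowest, and the Ing1-KO libraries spread 9.07-fold on this sum. A list of 12 macrophage markers summed to 3809 to 4407 CPM in WT, 1973 to 5835 CPM in the Gadd45a-KO-labelled libraries, where replicate 1 was the lowest of all 12, 3781 to 4568 CPM in Ing1-KO and 6841 to 7379 CPM in the DKO-labelled libraries.

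Lpl encodes lipoprotein lipase, the enzyme that releases fatty acids from lipoprotein triglyceride. It was measured at 1115, 606 and 1000 CPM in WT, 561, 535 and 445 CPM in the Gadd45a-KO-labelled libraries, 961, 327 and 169 CPM in Ing1-KO, and 156, 151 and 244 CPM in those labelled DKO. All 3 DKO-labelled libraries lay below all WT libraries, whereas Ing1-KO reached from the WT range down to the DKO range. Against WT, Lpl fell in the DKO-labelled libraries by 2.31 log2 units (SE 0.54, edgeR quasi-likelihood test with Benjamini-Hochberg adjustment over all tested genes, adjusted p = 0.0244), a level 20.2% of WT.

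Gpihbp1 encodes the endothelial protein that carries lipoprotein lipase to the capillary surface. It had 0 reads in each of the 12 libraries, which allows a level of up to 0.0565 to 0.0704 CPM depending on the library (3 counts, counting error only). Of 12 endothelial markers, Cldn5 had no reads in any library, Cdh5 did not exceed 1.86 CPM and Pecam1 did not exceed 1.10 CPM. The summed list came to between 12.9 and 24.2 CPM. Erg, its most abundant gene, had a mean level of 5.60 CPM. It was at 2.64 to 3.50 CPM in WT and 2.86 to 5.10 CPM in the Gadd45a-KO-labelled libraries. In Ing1-KO it was at 6.02 to 12.4 CPM and in the DKO-labelled libraries at 5.42 to 7.16 CPM. Kdr, the next, was at 1.26 to 3.36 CPM over all libraries.

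Vldlr encodes the very low density lipoprotein receptor, which takes up triglyceride-rich lipoproteins. Its levels were 138, 144 and 138 CPM in WT, 137, 130 and 130 CPM in the Gadd45a-KO-labelled libraries, 141, 120 and 114 CPM in Ing1-KO, and 134, 136 and 124 CPM in the DKO-labelled libraries. The DKO-labelled libraries were all below WT but by little, with a log2 fold change of -0.09 (SE 0.07, edgeR adjusted p = 0.433). Vldlr did not pass the test in any comparison.

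Cd36 encodes the scavenger receptor that binds long-chain fatty acids at the membrane. It was measured at 538, 286 and 483 CPM in WT, 234, 270 and 206 CPM in the Gadd45a-KO-labelled libraries, 513, 199 and 76.2 CPM in Ing1-KO, and 160, 158 and 118 CPM in the DKO-labelled libraries. Every DKO-labelled library was below every WT library, yet the lowest library of all was Ing1-KO replicate 3. The difference between DKO-labelled and WT libraries was -1.58 log2 units (SE 0.54) and missed the threshold (edgeR adjusted p = 0.0825). It passed in 4 of 20 alternatives, among them DESeq2 (adjusted p = 0.0280) and the edgeR fit of only the 6 libraries compared (adjusted p = 0.0186).

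Slc27a1 encodes fatty acid transport protein FATP1, an insulin-responsive transporter with acyl-CoA synthetase activity. Its levels were 74.5, 44.3 and 64.3 CPM in WT, 35.2, 51.4 and 41.3 CPM in the Gadd45a-KO-labelled libraries, 64.2, 42.5 and 36.8 CPM in Ing1-KO, and 39.2, 39.4 and 39.4 CPM in the DKO-labelled libraries. The DKO-labelled values were nearly identical and all below WT, of which replicate 2 was the closest. The log2 fold change was -0.63 (SE 0.23, edgeR adjusted p = 0.104). It was called in 2 of 20 alternatives, 1 of them DESeq2 (adjusted p = 0.0271).

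Slc27a4 encodes the related transporter FATP4. It was measured at 62.5, 59.0 and 61.8 CPM in WT, 57.4, 58.6 and 55.4 CPM in the Gadd45a-KO-labelled libraries, 62.2, 58.0 and 55.8 CPM in Ing1-KO, and 51.7, 57.7 and 52.5 CPM in the DKO-labelled libraries. Its fall in the DKO-labelled libraries was small, to 88.4% of WT (log2 fold change -0.18, SE 0.05, edgeR adjusted p = 0.0477). This call was lost in 11 of 20 alternative analyses, with adjusted p up to 0.176.

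Fabp4 encodes the adipocyte fatty acid binding protein aP2, and among the fatty acid binding protein genes it had the widest range. Its levels were 1217, 627 and 1181 CPM in WT, 525, 539 and 394 CPM in the Gadd45a-KO-labelled libraries, 1219, 406 and 98.8 CPM in Ing1-KO, and 68.7, 68.6 and 78.9 CPM in the DKO-labelled libraries. The DKO-labelled libraries were the lowest 3 of the 12, and Ing1-KO alone spanned from the highest value to just above them. Against WT, Fabp4 fell 14.0-fold in the DKO-labelled libraries (log2 fold change -3.81, SE 0.73, edgeR adjusted p = 0.0136).

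Fabp5, the epidermal or macrophage fatty acid binding protein, followed another order. It was measured at 273, 276 and 261 CPM in WT, 202, 272 and 258 CPM in the Gadd45a-KO-labelled libraries, 177, 148 and 169 CPM in Ing1-KO, and 191, 182 and 194 CPM in the DKO-labelled libraries. All 6 libraries labelled Ing1-KO or DKO lay below the other 6, a separation seen downwards in 1.63% of the tested genes and in no other member. Against WT, Fabp5 fell by 0.71 on the log2 scale in Ing1-KO (SE 0.10, edgeR adjusted p = 0.00543) and by 0.51 in the DKO-labelled libraries (SE 0.10, adjusted p = 0.0118). Between the DKO-labelled libraries and Ing1-KO its log2 fold change was 0.20 (SE 0.10, adjusted p = 0.183). The keratinocyte list, a check because epidermis is rich in Fabp5, summed to 7.98 to 14.6 CPM. The macrophage list summed to 1973 to 7379 CPM, and the part of macrophage RNA in the Fabp5 levels was not tested.

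Fabp3, the heart-type fatty acid binding protein, was barely expressed, at 1.03 to 1.59 CPM in WT, 1.20 to 1.36 CPM in the Gadd45a-KO-labelled libraries, 1.60 to 1.92 CPM in Ing1-KO and 1.32 to 1.81 CPM in the DKO-labelled libraries. These levels rest on 49 to 100 reads per library. The 3 Ing1-KO libraries were above the 3 WT libraries, as in 14.2% of tested genes, with a log2 fold change of 0.40 (SE 0.18, edgeR adjusted p = 0.234). Of the 12 muscle markers Ckm had no reads in any library, and the list summed to 68.8 to 125 CPM, mostly from Des and Acta1. The transcripts of Fabp3 and Fabp5 share part of their sequence with other annotated genes. Of the 51-base windows, 36.9% for Fabp3 and 20.4% for Fabp5 also occur in such genes, on either strand. The share was 4.06% for Lpl, 1.68% for Slc27a1 and 0% for Fabp4. Copies elsewhere and genes that overlap the same place were not told apart. Reads that mapped to several places were not counted, so the Fabp3 and Fabp5 levels are uncertain.

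Acsl1 encodes the long-chain acyl-CoA synthetase that predominates in adipocytes. It was measured at 505, 223 and 460 CPM in WT, 171, 210 and 147 CPM in the Gadd45a-KO-labelled libraries, 381, 127 and 39.7 CPM in Ing1-KO, and 26.5, 27.1 and 33.3 CPM in the DKO-labelled libraries. The DKO-labelled libraries were again the lowest of all 12. The fall against WT was 13.7-fold (log2 fold change -3.77, SE 0.70, edgeR adjusted p = 0.0121).

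**Figure D1:**
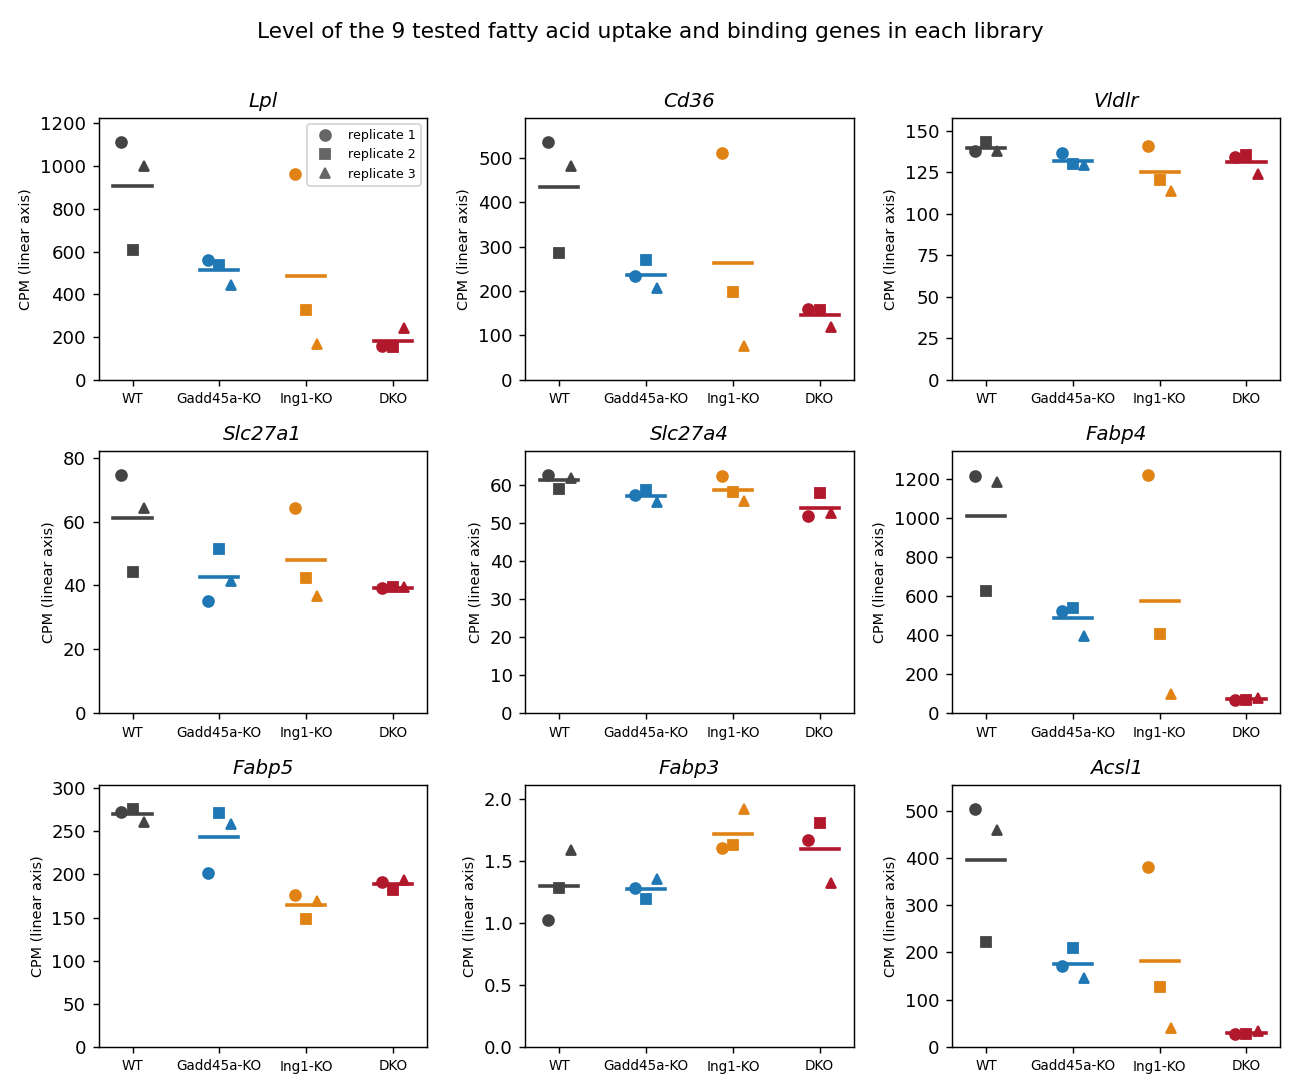
CPM of the 9 tested genes (linear vertical axes starting at 0) in each of the 12 libraries by labelled genotype, with a bar at the mean of 3. Fabp4 and Acsl1 are lowest in the 3 libraries labelled DKO, Fabp5 is lower in the 6 libraries labelled Ing1-KO or DKO, and Vldlr and Slc27a4 vary little.

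RefSeq (GRCm38.p6) gives start-site windows, from 250 bases before to 50 bases after the start, for 6 of the 10 genes. They are shown for Cd36 and for both starts of Acsl1, since these genes ranged together with the adipocyte markers. Capitals mark matches, on either strand, of the nuclear receptor half-site AGGTCA, the C/EBP core TTGCNNAA, the sterol element core TCACNCCAC and the GC box GGGCGG. The windows are chr5:17835847-17836146 on the minus strand for Cd36 and chr8:46470787-46471086 and chr8:46490716-46491015 on the plus strand for Acsl1.
Cd36: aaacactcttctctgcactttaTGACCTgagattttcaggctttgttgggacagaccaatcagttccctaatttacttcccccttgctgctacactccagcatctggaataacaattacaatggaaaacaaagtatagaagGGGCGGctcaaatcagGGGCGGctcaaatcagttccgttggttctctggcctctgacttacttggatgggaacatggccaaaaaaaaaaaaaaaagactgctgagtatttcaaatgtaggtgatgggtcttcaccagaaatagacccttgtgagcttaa
Acsl1 first start: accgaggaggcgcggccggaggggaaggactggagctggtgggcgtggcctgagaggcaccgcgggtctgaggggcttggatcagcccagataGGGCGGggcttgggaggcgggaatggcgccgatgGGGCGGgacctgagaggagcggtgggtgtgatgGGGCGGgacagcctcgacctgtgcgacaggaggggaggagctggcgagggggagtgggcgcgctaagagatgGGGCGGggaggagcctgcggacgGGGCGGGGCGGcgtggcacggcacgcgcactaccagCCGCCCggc
Acsl1 second start: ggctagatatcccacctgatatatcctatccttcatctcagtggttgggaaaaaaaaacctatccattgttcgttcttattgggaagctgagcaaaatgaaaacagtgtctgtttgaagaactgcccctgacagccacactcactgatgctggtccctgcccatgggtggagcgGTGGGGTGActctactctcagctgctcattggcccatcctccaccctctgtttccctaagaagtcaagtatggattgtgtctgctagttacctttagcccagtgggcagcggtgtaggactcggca
The Cd36 window held 1 half-site, written as its reverse complement, and 2 GC boxes, with 43% G and C. The first Acsl1 window held 7 GC boxes, a pair of which overlap, at 74% G and C, and the second held 1 sterol element core at 50% G and C. Over all 32851 windows of this length, the half-site occurred in 16.3%, the C/EBP core in 10.8%, the sterol element core in 1.24% and the GC box in 35.7%. The direct repeat of the half-site with 1 base between, which PPARG binds with RXRA, occurred in 0.0396% of windows and TATAAA in 13.6%, and neither was found in the 10 windows of the 6 genes. Gene counts do not show which of the Acsl1 starts was used.

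In the DKO-labelled libraries, 5 of the 9 tested genes fell against WT, namely Fabp4, Acsl1, Lpl, Fabp5 and Slc27a4, and none rose, where 7.11% of all tested genes fell. The median log2 fold change of the 9 was -0.63, against -0.0026 over all tested genes. 8 of the 9, all except Fabp3, had every DKO-labelled library below every WT library, compared with 19.7% of tested genes. Beside these falls, 11 of 12 adipocyte markers fell (median log2 fold change -4.35), 5 of 12 macrophage markers rose and all 12 had positive values (median 0.87), Adgre1 by 1.14 (SE 0.29, edgeR adjusted p = 0.0304) and Lyz2 with 0.72 (SE 0.33, adjusted p = 0.186). The part of these cell markers in the results was not tested, and in bulk RNA fewer cells of a type cannot be told apart from less RNA per cell. The count of 5 became 0 without WT replicate 1 and without DKO replicate 1, and 3 without WT replicate 3, without DKO replicate 2 and when genes with low counts were kept. The size of the falls moved little, with Fabp4 between -4.06 and -3.65 on the log2 scale and Acsl1 between -4.06 and -3.56 in all alternatives.

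In Ing1-KO only Fabp5 passed the test among the 9 genes, where 1.84% of tested genes fell. It remained called in all 20 alternatives, between -0.77 and -0.64 on the log2 scale when 1 library was left out. The fold changes of Acsl1, Lpl, Fabp4 and Cd36 were -1.12, -0.90, -0.81 and -0.73 on the log2 scale (edgeR adjusted p = 0.357, 0.373, 0.538 and 0.485) and in all 4 Ing1-KO replicate 1 reached above the lowest WT library. Without that library 4 genes were called, adding Lpl at -1.87 (adjusted p = 0.0265), Acsl1 at -2.25 (adjusted p = 0.0405) and Vldlr at -0.26 (adjusted p = 0.0197), while Fabp4 and Cd36 stood at -2.0 and -1.66. On leaving out Ing1-KO replicate 3 instead, Acsl1, Lpl, Fabp4 and Cd36 stood at -0.64, -0.49, -0.31 and -0.29. By edgeR 0 of 12 macrophage and 0 of 12 adipocyte markers were called in Ing1-KO. Of these markers 0 and 1 were at an unadjusted p under 0.05, beside 3335 of 16163 tested genes. All 12 adipocyte values were negative (median log2 fold change -0.95).

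In the Gadd45a-KO-labelled libraries no gene of the 9 passed edgeR's test against WT, 0 had an unadjusted p under 0.05, and DESeq2 and limma-voom called 0. Only 0.0124% of all tested genes were called there by edgeR, and 854 of 16163 had an unadjusted p under 0.05. All 9 fold changes were negative, with a median of -0.52 on the log2 scale: -1.17 for Acsl1 (SE 0.63), -1.05 for Fabp4 (SE 0.66), -0.88 for Cd36 (SE 0.53) and -0.82 for Lpl (SE 0.52), each at an adjusted p of 0.897 or 0.898. For 6 of the 9, Fabp4, Cd36, Lpl, Vldlr, Slc27a4 and Acsl1, the 3 libraries lay below all WT libraries, as 7.61% of tested genes did. All 12 adipocyte markers had negative values there too (median -1.24) and 11 of 12 macrophage markers positive ones (median 0.15), with 0 of either called by edgeR and 1 and 0 at an unadjusted p under 0.05. Their part in the values of the 9 genes was not tested.

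The 3 comparisons with WT share the WT libraries, so that their fold changes are not independent of each other.

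**Figure D2:**
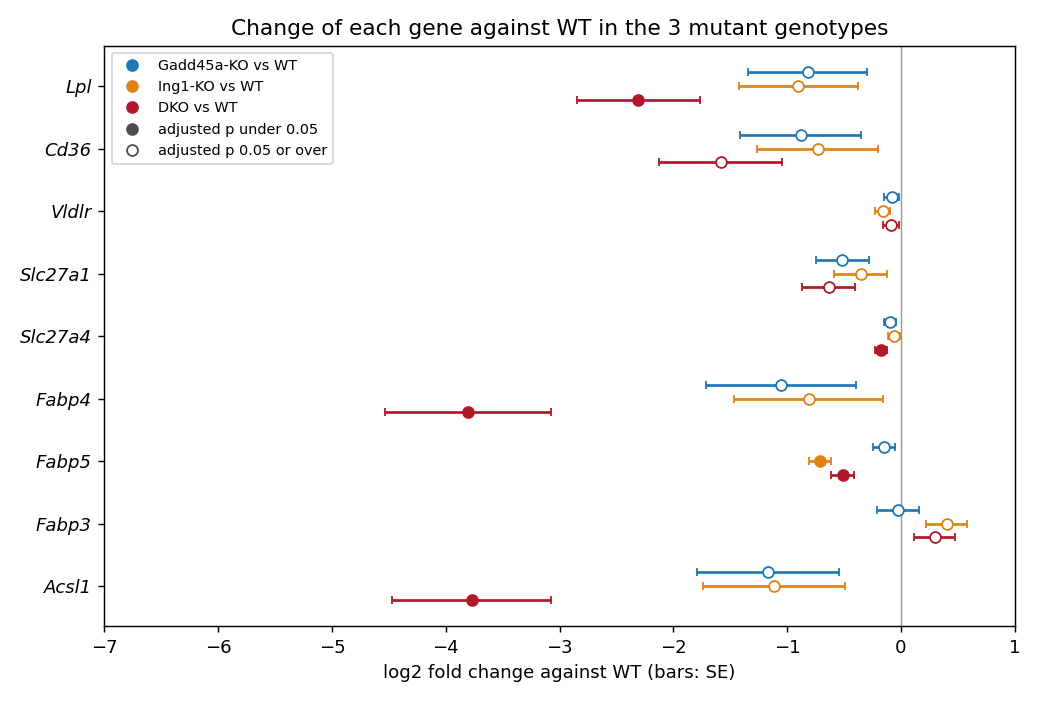
Log2 fold change against WT of the 9 tested genes in the Gadd45a-KO-labelled libraries, Ing1-KO and DKO, with bars of 1 SE, filled where the edgeR adjusted p is under 0.05. Fabp4 and Acsl1 in the DKO-labelled libraries lie near -3.8, while Fabp5 is called both in Ing1-KO and in the DKO-labelled libraries.

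The DKO-labelled libraries were also compared with Ing1-KO and with the Gadd45a-KO-labelled ones. Against Ing1-KO, Fabp4 fell by 2.99 log2 units (SE 0.71, edgeR adjusted p = 0.0303) and Acsl1 fell by 2.66 (SE 0.67, adjusted p = 0.0359), 2 of 9 genes where 6.02% of tested genes fell. Both calls were lost with limma-voom, with no filter, in the fit of only these 6 libraries, and on leaving out Ing1-KO replicate 1 (then -1.81 and -1.52), Ing1-KO replicate 2 or any 1 of the DKO replicates. The Acsl1 call was also lost on leaving out replicate 3 of WT or of the Gadd45a-KO-labelled libraries, and leaving out Ing1-KO replicate 3 gave 4 calls. Cd36 stood at -0.85 (SE 0.53, adjusted p = 0.298) and Lpl at -1.40 (SE 0.53, adjusted p = 0.102), which became 0.082 and -0.43 on leaving out Ing1-KO replicate 1 and -1.29 and -1.81 on leaving out its replicate 3. In the same comparison 8 of 12 adipocyte markers fell (median log2 fold change -3.24), while 3 of 12 macrophage markers rose and all 12 had positive values (median 0.78), and their part in these differences was not tested.

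Against the Gadd45a-KO-labelled libraries, edgeR called none of the 9 in those labelled DKO, beside 1.19% of tested genes. Of the 9, 4 had an unadjusted p under 0.05, beside 3219 of all 16163 tested genes. DESeq2 called 3 and limma-voom 0, beside 1253 and 199 of all genes. Fabp4 stood at -2.75 log2 units (SE 0.70, edgeR adjusted p = 0.0772) and Acsl1 at -2.60 (SE 0.67, adjusted p = 0.0788), and for both all 3 DKO-labelled libraries were below all 3 others, as for 13.6% of tested genes. Fabp5 stood at -0.37 (SE 0.10, adjusted p = 0.0826). Lpl stood at -1.49 (SE 0.53, adjusted p = 0.160).

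The interaction asks whether the DKO-labelled change differs from the sum of the Gadd45a-KO-labelled and Ing1-KO changes on the log2 scale. It was called for 0 of the 9 genes and for 0% of all tested genes by edgeR, with 1 of the 9 and 2195 of all genes at an unadjusted p under 0.05; DESeq2 called 0 and 173 and limma-voom 0 and 0. The estimate for Fabp4 was -1.94 (SE 0.93, edgeR adjusted p = 0.40), for Acsl1 -1.49 (SE 0.89, adjusted p = 0.488), for Fabp5 0.35 (SE 0.14, adjusted p = 0.319) and for Cd36 0.03 (SE 0.75, adjusted p = 0.991). Leaving out Ing1-KO replicate 1 moved the estimates of Fabp4 and Acsl1 to -0.76 and -0.35, and leaving out its replicate 3 moved them to -2.44 and -1.96. A test of any difference among the 4 genotypes passed for Fabp5 (edgeR adjusted p = 0.00794), Acsl1 (adjusted p = 0.0353) and Fabp4 (adjusted p = 0.0395), 3 of 9 genes beside 11.7% of all tested genes, and Lpl had an adjusted p of 0.0728. The count of 3 became 6 on leaving out Ing1-KO replicate 1, 5 for its replicate 3, 2 for WT replicate 2 and 1 for each of the other 9 libraries.

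The 9 genes differed in how far they ranged between replicates of 1 genotype. In Ing1-KO the highest library exceeded the lowest 12.3-fold for Fabp4, 9.60-fold for Acsl1, 6.73-fold for Cd36 and 5.69-fold for Lpl, beside 9.07-fold for the summed adipocyte markers. Slc27a1 ranged 1.74-fold, Vldlr 1.24-fold, Fabp3 1.20-fold, Fabp5 1.19-fold and Slc27a4 1.11-fold there. In WT the same 4 genes ranged 1.94-fold, 2.27-fold, 1.88-fold and 1.84-fold, beside 1.06-fold for Fabp5.

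With genotype means removed, a difference of 1 in the mean log2 level of the adipocyte list went with 1.24 for Fabp4, 1.16 for Acsl1, 0.94 for Cd36, 0.90 for Lpl, 0.34 for Slc27a1 and 0.01 for Fabp5, all on the log2 scale over 12 libraries. Vldlr stood at 0.08, Slc27a4 at 0.06 and Fabp3 at -0.08. The list mean ranged from 2.08 to 4.83 in Ing1-KO and from 3.95 to 5.09 in WT. It ranged from 3.48 to 3.85 in the Gadd45a-KO-labelled libraries and from 1.55 to 1.79 in those labelled DKO. The Ing1-KO libraries thus weigh most in these values. Points share a library and its depth, and the values are a description. The levels of Fabp5 within Ing1-KO, 148 to 177 CPM, did not follow the 9.07-fold spread of the adipocyte markers. By correlation with the average profile of the 9 genes over the 12 libraries, the most alike of 10516 other genes were Hsd17b12 (r = 0.991), a fatty acid elongation enzyme, Adipor2 (r = 0.987), an adiponectin receptor, Acer2 (r = 0.985), a ceramidase, Anxa2 (r = 0.984), a membrane-binding annexin, and Acly (r = 0.981), ATP citrate lyase.

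**Figure D3:**
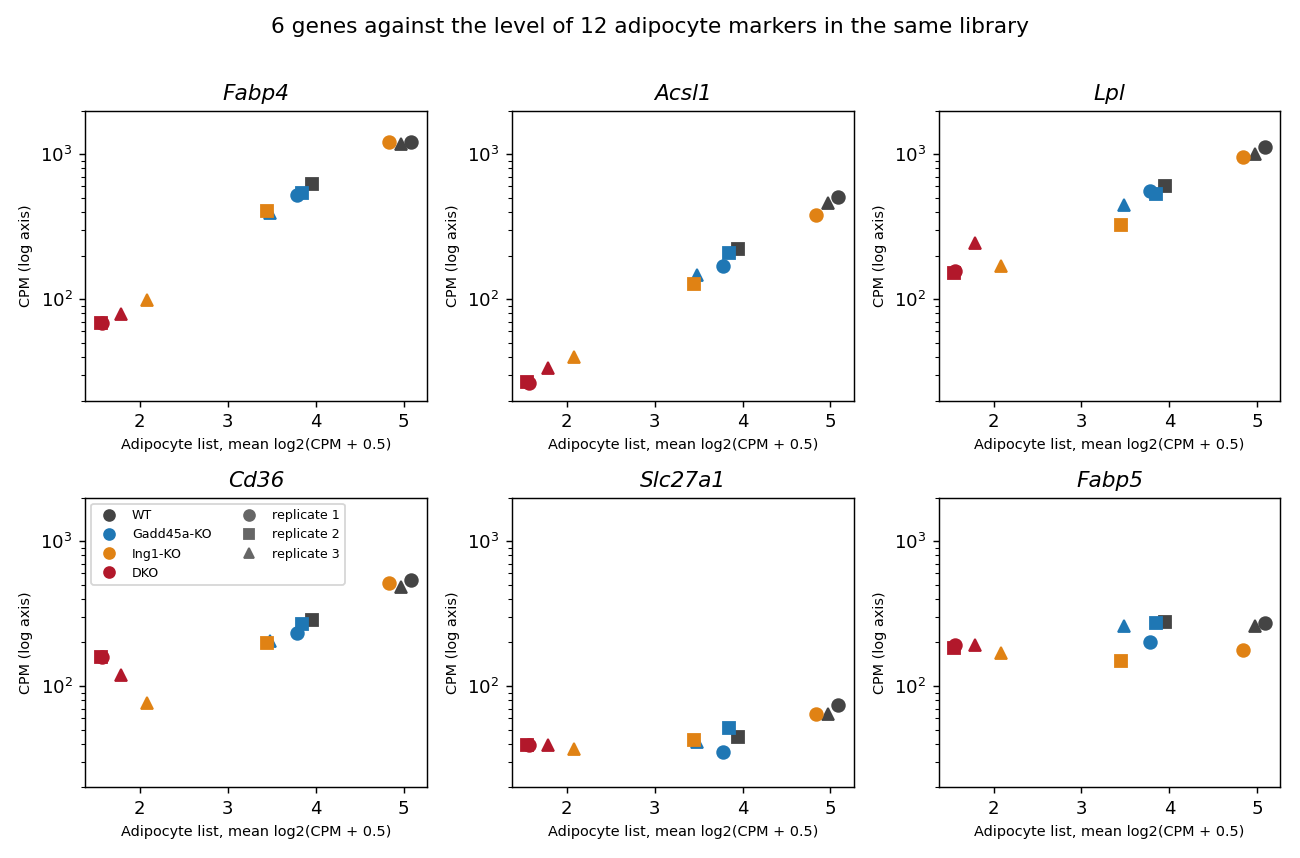
CPM of 6 genes (log vertical axis) against the mean log2(CPM + 0.5) of 12 adipocyte markers in the same library, 1 point per library, coloured by labelled genotype and shaped by replicate. Fabp4, Acsl1 and Lpl are higher where the list is higher, Cd36 in the DKO-labelled libraries lies above Ing1-KO replicate 3 at lower marker levels, and Fabp5 is low in Ing1-KO at every marker level.

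Cd36 and Lpl kept more of their WT level than Fabp4 in the DKO-labelled libraries, at 33.4% and 20.2% of WT against 7.15%. The log2 ratio of Cd36 to Fabp4 was -1.18, -1.13 and -1.29 in WT, -1.17, -1.0 and -0.94 in the Gadd45a-KO-labelled libraries, -1.25, -1.03 and -0.37 in Ing1-KO, and 1.22, 1.20 and 0.58 in the DKO-labelled libraries. The ratio was above 0 in the 3 DKO-labelled libraries and below 0 in the other 9. Acsl1 relative to Fabp4 stayed between -1.68 and -1.24 in all 12. The summed macrophage markers were highest in the same 3 libraries, at 172% of the WT mean, and their part in the ratio was not tested. In the library labelled Gadd45a-KO replicate 1, where that sum was lowest at 1973 CPM, the ratio was -1.17, within the WT range. In replicates 2 and 3 with that label the sum was 5835 and 5453 CPM, above the WT range. There the ratio was -1.0 and -0.94, also above the WT range. In Ing1-KO replicate 3 the ratio was -0.37 at a sum of 4150 CPM, which lies within the WT range of that sum. The log2 ratio of Lpl to Fabp4 was 0.77 in Ing1-KO replicate 3 and 1.14 to 1.63 in the DKO-labelled libraries. It was -0.34 to 0.18 in the remaining libraries.

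**Figure D4:**
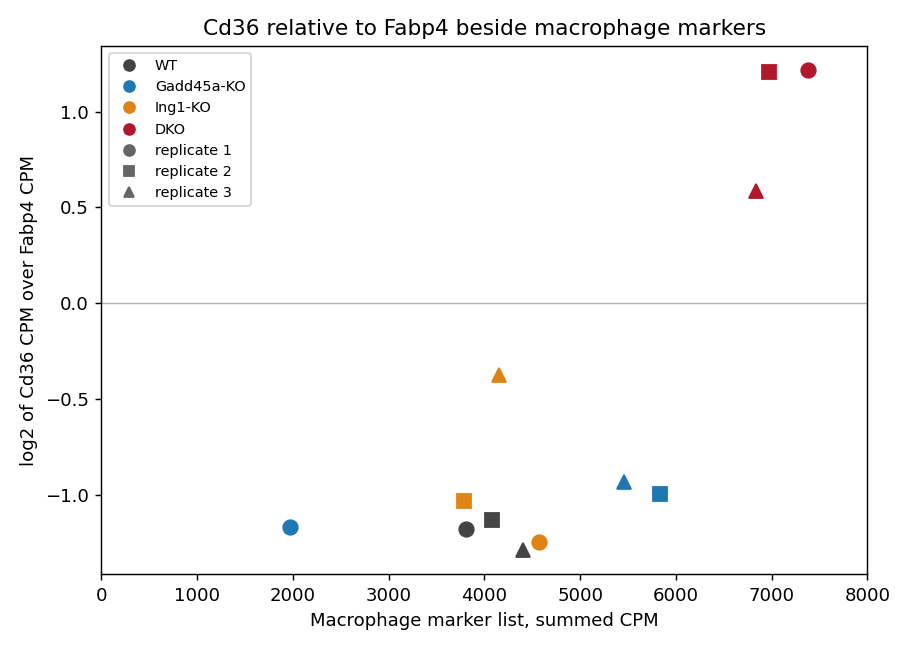
Log2 of Cd36 CPM over Fabp4 CPM against the summed CPM of 12 macrophage markers, 1 point per library. The 3 libraries labelled DKO lie between 0.58 and 1.22 at 6841 to 7379 CPM, and the other 9 lie below 0 at up to 5835 CPM.

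Levels of different genes were compared per kb of the longest principal transcript. In WT Fabp4 led with 1125 ± 369 CPM per kb (SD, n = 3), followed by Fabp5 at 273 ± 8.33, Lpl at 220 ± 64.9, Cd36 at 128 ± 39.0 and Acsl1 at 102 ± 38.9 CPM per kb. Slc27a1 at 21.8 ± 5.50, Vldlr at 17.5 ± 0.415 and Slc27a4 at 15.1 ± 0.462 CPM per kb came next, and Fabp3 was last at 1.58 ± 0.344 CPM per kb. Fabp5 and Lpl, Cd36 and Acsl1, and Slc27a1 and Vldlr are neighbours in this order that lie within 1 SD of each other. With all annotated exons merged as the length, Cd36 stood above Fabp5 in WT, so the order depends on the transcript taken.

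In the DKO-labelled libraries the leading gene per kb was Fabp5, at 192 CPM per kb, with Fabp4 at 80.4, Lpl at 44.6 and Cd36 at 42.8 CPM per kb. Fabp4 made up 83%, 71.3% and 83.2% of the 3 fatty acid binding protein transcripts per kb in WT, 74.0%, 68.5% and 62.6% in the Gadd45a-KO-labelled libraries, 88.3%, 74.8% and 38.9% in Ing1-KO, and 28.1%, 29.0% and 30.8% in the DKO-labelled libraries. Fabp4 was thus the major binding protein transcript in 8 libraries and the minor one, behind Fabp5, in Ing1-KO replicate 3 and the 3 DKO-labelled libraries. The 3 genes together came to 981 to 1635 CPM per kb in WT and 264 to 286 CPM per kb in the DKO-labelled libraries.

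**Figure D5:**
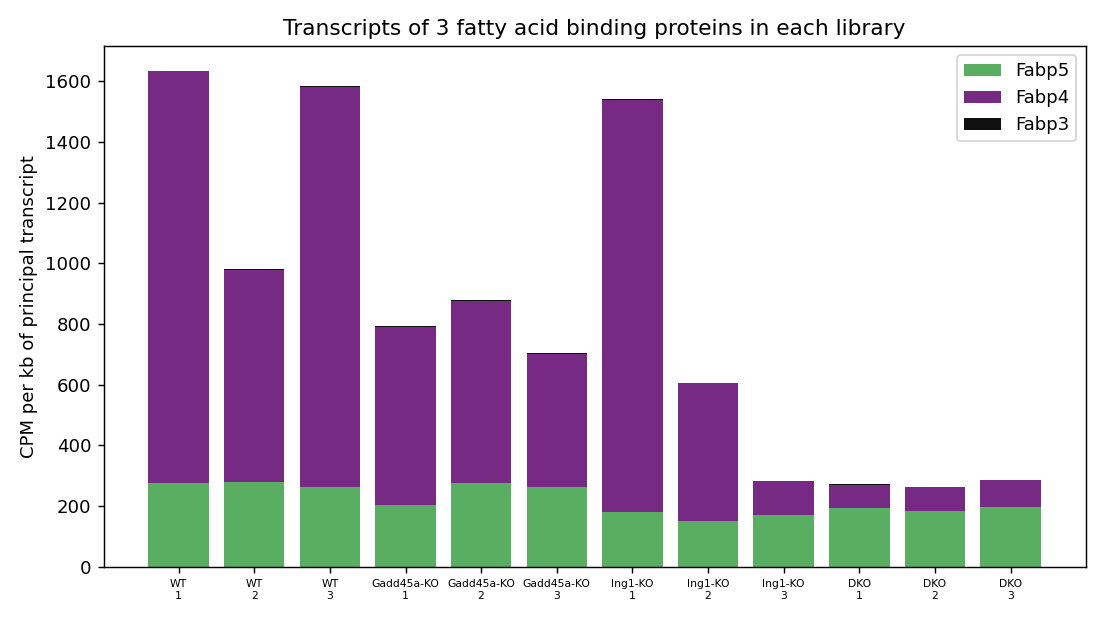
Stacked CPM per kb of principal transcript of Fabp5, Fabp4 and Fabp3 in each of the 12 libraries (linear axis from 0). Fabp4 is the larger part in WT and the Gadd45a-KO-labelled libraries, and Fabp5 is the larger part in Ing1-KO replicate 3 and the DKO-labelled libraries, where the sum is 264 to 286 CPM per kb.

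Other genes of the same pathway were read from 5 lists of 61 genes, 50 of which were tested. In the DKO-labelled libraries, 16 fell and 3 rose against WT, beside 7.11% of tested genes lower and 5.88% higher. The median over the 50 was -0.19 on the log2 scale. This count was 4 without WT replicate 1 or without DKO replicate 1, 9 without WT replicate 3 or without DKO replicate 2, and 12 with no filter, in place of 19.

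Among 10 tested genes that control lipases or carry lipid in lipoproteins, 2 fell and 2 rose in the DKO-labelled libraries. Angptl4, a secreted inhibitor of lipoprotein lipase, went from 113 ± 14.6 CPM in WT to 73.3 ± 5.73 CPM (SD, n = 3; log2 fold change -0.63, edgeR adjusted p = 0.0261). Apoc1, an apolipoprotein, went from 3.46 ± 1.37 to 0.279 ± 0.032 CPM (adjusted p = 0.0301). Lipa, the lysosomal acid lipase that hydrolyses internalised lipid, rose from 187 ± 9.56 to 257 ± 2.79 CPM (by 0.46 log2 units, SE 0.06, adjusted p = 0.00296), and it also rose against Ing1-KO (0.34, adjusted p = 0.0150) and against the Gadd45a-KO-labelled libraries (0.36, adjusted p = 0.0249). Apoe, an apolipoprotein abundant in macrophages and named after its values were seen, rose by 1.56 log2 units (SE 0.42, adjusted p = 0.0372). Sel1l, which helps lipase mature in the endoplasmic reticulum, stood at 0.00051 (adjusted p = 0.995).

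Of 9 lipoprotein receptor genes 2 fell in the DKO-labelled libraries. Among them Scarb1, the receptor for high density lipoprotein, fell by 0.88 log2 units (SE 0.17, edgeR adjusted p = 0.0133). Lrp1, a large endocytic receptor, stood at -0.15 (adjusted p = 0.143).

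Of 8 further tested import genes 2 fell in the DKO-labelled libraries. Ffar4, a receptor for long-chain fatty acids, was at 0.954 to 2.31 CPM in WT and 0.0206 to 0.0663 CPM in the DKO-labelled libraries, which is 1 to 3 reads (edgeR adjusted p = 0.0142). Got2, a mitochondrial aminotransferase also described as a membrane fatty acid binding protein, fell by 0.14 log2 units (SE 0.04, adjusted p = 0.0405), a call lost in 10 of 20 alternatives. Against Ing1-KO, 4 import genes fell and 1 rose in the DKO-labelled libraries: Slc27a3, another member of the transport protein family, fell by 0.68 (SE 0.11, adjusted p = 0.0132), Scarb2, a lysosomal membrane receptor, rose by 0.25 (SE 0.04, adjusted p = 0.0153), and Ffar4 was called lower, as were Zdhhc4 and Lyplal1, which were named after their values were seen.

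Of 9 tested genes of lipid binding, 3 fell in the DKO-labelled libraries. Dbi, the acyl-CoA binding protein, fell from 120 ± 28.0 to 57.0 ± 2.42 CPM (log2 fold change -1.08, edgeR adjusted p = 0.0371), Acbd4, of the same domain family, by 0.38 log2 units (adjusted p = 0.00872), and Crabp1, a retinoic acid binding protein, by 0.62 (adjusted p = 0.0290). The Dbi call was lost in 10 of 20 alternatives. In Ing1-KO Crabp2, its relative, rose by 0.70 (SE 0.09, adjusted p = 0.00280). Crabp2 and Acbd4 were lower in the DKO-labelled libraries than in Ing1-KO, by -0.44 and -0.31 (adjusted p = 0.0188 and 0.0221).

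Of 14 genes of fatty acid activation 7 fell and 1 rose in the DKO-labelled libraries. Acsf2, an acyl-CoA synthetase of medium chains, fell by 0.76 log2 units (SE 0.12, edgeR adjusted p = 0.00672), and Acsbg1, a synthetase of very long chains, by 1.27 (SE 0.22, adjusted p = 0.00868) from a level of 1.12 ± 0.089 CPM. Acss1, the mitochondrial acetyl-CoA synthetase, rose from 3.10 ± 0.489 to 5.89 ± 0.322 CPM (SD, n = 3; adjusted p = 0.0133), and it was higher than in Ing1-KO too (log2 fold change 0.84, adjusted p = 0.0239). Acsl4, which prefers arachidonic acid, stood at -0.17 (adjusted p = 0.132).

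In Ing1-KO 6 of the 50 pathway genes fell and 1 rose, where 1.84% of tested genes fell and 2.31% rose. Of these, 4 belong to activation: Acsbg1 fell by 0.91 log2 units (SE 0.21, edgeR adjusted p = 0.0382), Acsl4 by 0.30 (SE 0.07, adjusted p = 0.0426), Acsl6 by 1.02 (SE 0.25, adjusted p = 0.0483) from 0.517 ± 0.134 CPM, and Acsl3, named after its values were seen, by 0.34 (SE 0.09, adjusted p = 0.0484). The calls of Acsbg1, Acsl4 and Acsl6 were lost in 11 of 19, 12 of 20 and 16 of 19 alternatives. The 7 calls numbered 1 to 12 when 1 library was left out, with 1 without WT replicate 1, 2 without WT replicate 2 or 3, Gadd45a-KO replicate 3, Ing1-KO replicate 2 or DKO replicate 1 or 2, 3 without Gadd45a-KO replicate 2 and 12 without Gadd45a-KO replicate 1.

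Against Ing1-KO the DKO-labelled libraries had 9 pathway genes lower and 4 higher, beside 6.02% and 5.93% of tested genes. Lipg, endothelial lipase, was lower by -1.20 log2 units (edgeR adjusted p = 0.0386), Acss3 by -1.49 (adjusted p = 0.0318) and Acsf3 by -0.38 (adjusted p = 0.0280), the Lipg call being lost in 11 of 19 alternatives. The 13 calls became 0 on leaving out Ing1-KO replicate 2 or DKO replicate 1, 1 for DKO replicate 2, 3 for Ing1-KO replicate 1 and 8 for WT replicate 3. Against the Gadd45a-KO-labelled libraries edgeR called only Lipa, and DESeq2 called 9 pathway genes beside 1253 of all genes. The edgeR count was 0 on leaving out Gadd45a-KO replicate 2 or DKO replicate 1 or 2. It was 2 to 4 on leaving out Gadd45a-KO replicate 1, DKO replicate 3, or replicate 1 or 3 of Ing1-KO. Between the Gadd45a-KO-labelled libraries and WT no pathway gene was called by edgeR, DESeq2 or limma-voom. There 10 of the 50 were at an unadjusted p under 0.05, beside 854 of 16163 tested genes.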

How the data were processed

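The values are raw read counts per Ensembl gene, deposited by the authors, from 51-cycle single-end reads. Tools named in the submitters' processing notes are DESeq, HTSeq 0.5.4, Bowtie2 2.1.0, TopHat2 2.0.9 and FastQC, with builds mm9 and NCBIM37. How strand and overlaps were handled in counting is not given in the sources used here. The 5 lines that name no gene, 24.2% to 24.8% of each library, were left out. Symbols came from a GENCODE annotation of a later build (GRCm38) and matched 32919 of 37991 identifiers.

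Genes were tested with edgeR 4.0.16 in R 4.3.3 (TMM, filterByExpr by genotype, quasi-likelihood test, 12 libraries in 1 fit, Benjamini-Hochberg adjustment over 16163 genes, threshold 0.05). The SE is approximated as the absolute log2 fold change over the root of its F statistic. Alternatives used DESeq2 1.42.0, limma-voom 3.58.1, other scaling and filters, a replicate block, only the libraries compared, and each library left out. The steps were tested on simulated counts, drawn independently for each gene and with changes set in DKO alone. Such counts hold no spread shared between genes within a genotype, so they do not show how the calls behave under it. Named are all members, the targets, up to 3 called genes by adjusted p for each pathway list and comparison, the most abundant uncalled ones, the 2 most abundant markers of a list and the 5 most alike genes. Of the genes this rule takes, 2 are not reported here, though they are part of the list counts. The members and lists were chosen with earlier results of these data known.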

Additional observations from a re-analysis of the deposited data

How the results depend on the processing

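Fabp5 in Ing1-KO against WT was called in all 20 alternatives, as was Crabp2. Between DKO-labelled and WT libraries the calls of Lipa, Acbd4 and Acsf2 also held in all 20, and that of Acsbg1 in all 19. Most other calls depended on single libraries. With 1 library left out, member calls ranged from 0 to 6 for DKO-labelled libraries against WT, 0 to 4 against Ing1-KO and 0 to 3 against Gadd45a-KO-labelled ones, from 1 to 4 for Ing1-KO against WT, and from 1 to 6 for any difference. Pathway calls ranged from 4 to 24, 0 to 18, 0 to 4 and 1 to 12 in the same 4 comparisons, and 0 to 1 for the interaction. Calls over all genes ranged from 299 to 2762, 6 to 3179, 6 to 600 and 96 to 1155, from 2 to 35 for Gadd45a-KO-labelled libraries against WT and from 0 to 191 for the interaction.

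With DESeq2, 3 members, 9 pathway genes and 1253 of all genes were called between DKO-labelled and Gadd45a-KO-labelled libraries (0, 1 and 192 with edgeR), 2924 of all genes against Ing1-KO (1932), 1256 for Ing1-KO against WT (671), 7 for Gadd45a-KO-labelled libraries against WT (2), and 173 genes with 2 pathway genes for the interaction (0). When only the 6 libraries compared were fitted, the counts were 3160 of all genes for DKO-labelled libraries against WT (2099), 3 members, 7 pathway genes and 431 of all genes against Gadd45a-KO-labelled ones, 0 members, 6 pathway genes and 1220 of all genes against Ing1-KO, and 3 pathway genes and 398 of all genes for Ing1-KO against WT. With no filter they were 3 members and 12 pathway genes for DKO-labelled libraries against WT, 0 members, 7 pathway genes and 1183 of all genes against Ing1-KO, and 2 of all genes for the interaction. A mean of at least 5 CPM left 4 pathway genes for Ing1-KO and 1 gene for Gadd45a-KO-labelled libraries against WT, and limma-voom 0 members for DKO-labelled libraries against Ing1-KO. The causes were not tested.

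Same-numbered libraries correlated between -0.284 and 0.359, over 0.1 in 3 of 18 pairs, so the numbers were not taken to pair samples. With the replicate block, 0 members were called for DKO-labelled libraries against Ing1-KO, 92 of all genes against Gadd45a-KO-labelled ones, 2 pathway genes for Ing1-KO against WT and 1 member for any difference. Upper-quartile scaling turned the uncalled Cd36 interaction to -0.0024 and gave 41.4% higher among calls between DKO-labelled and Gadd45a-KO-labelled libraries (53.1% with TMM) and 38% against Ing1-KO (49.6%).

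Signs that turned with 1 library left out all belonged to uncalled values. The ranges of log2 fold change were -1.29 to 0.082 for Cd36 and -0.21 to 0.016 for Fabp3 (DKO-labelled against Ing1-KO), -0.24 to 0.041 for Slc27a1 and -0.027 to 0.031 for Vldlr (against Gadd45a-KO-labelled), -0.17 to 0.15 for Fabp3 (Gadd45a-KO-labelled against WT), and, for the interaction, -0.41 to 0.96 for Cd36, -0.26 to 0.062 for Fabp3, -0.99 to 0.39 for Lpl and -0.076 to 0.021 for Slc27a4. Depth limits Fabp3, at 49 to 100 reads per library, and Gpihbp1, at 0.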
